A study of Homo sapiens with 23 samples.

Results

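HepG2 cells, a human hepatocellular carcinoma line that keeps many functions of hepatocytes, were compared between co-culture and mono-culture while both received free fatty acids (FFAs). The comparison used the 6 of the 23 mRNA-seq libraries that the labels name as FFAs-treated HepG2: 3 from co-culture with Caco-2 cells, a colorectal cancer line that resembles gut epithelium, and 3 from mono-culture. Both cultures were held in the iGLC platform, a microfluidic chip in which valves separate or connect the chambers of the 2 cell lines and a micropump circulates the medium between them. In all 6 samples the FFAs were palmitic and oleic acid at a molar ratio of 1:2 and 1 mM in total for 1 day. The labels give 0.5% FBS in this medium, whereas the methods text describes a medium with BSA and without serum. By the labels, the groups differed in culture with or without Caco-2 cells. The 6 HepG2 control libraries, cultured both ways without FFAs, give the same contrast in samples outside the compared groups. HepG2 is a single tumour-derived line and stands in for hepatocytes only in part. Neither the labels nor the methods text say whether same-numbered libraries shared a chip or day. The p-values measure the spread between these libraries. The study's reporting summary speaks of 3 groups of biological replicates without naming the libraries. Its methods text gives at least 2 independent experiments for mRNA-seq, so that each library came from its own experiment is not documented.

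Bone morphogenetic proteins (BMPs) are secreted ligands that signal through receptor kinases and the transcription factors SMAD1, SMAD5 and SMAD8. In hepatocytes this pathway controls hepcidin, the hormone encoded by HAMP that lowers iron export into blood, and it switches on the ID genes and its own inhibitor SMAD7. Hepatocytes also burn fatty acids in mitochondria and peroxisomes, store them as triglyceride in droplets and export them on apolipoproteins, so these groups of genes are described after the BMP targets.

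Of 60564 genes listed, 13870 had a mean of at least 1 TPM (length-scaled share of a library's transcripts) in either group and were tested. No gene passed an adjusted p under 0.05 (0 genes, 0.0%, limma with Benjamini-Hochberg adjustment, smallest adjusted p = 0.392), and 802 (5.78%) had an unadjusted p under 0.05, 355 of them (2.56%) higher and 447 (3.22%) lower in co-culture. With a change of at least 1.2-fold in addition, 758 genes (5.47%) remained, 326 (2.35%) higher and 432 (3.11%) lower. The excess of lower genes depended on scaling and on single libraries: the split was 396 higher and 385 lower with median-of-ratios scaling, 624 and 551 without co-cultured replicate 1, and 310 and 294 without mono-cultured replicate 2. Same-numbered libraries of the FFAs groups deviated together, and with the number as a replicate block over all 12 HepG2 libraries ID1 alone passed (1 gene, 0.00721%, adjusted p = 0.0136). With the replicate block fitted to the 6 FFAs libraries alone, hereafter the paired fit, 263 genes (1.90%) passed the adjusted threshold, 114 (0.822%) higher and 149 (1.07%) lower. Without the replicate block 156 of these 263 genes had an unadjusted p under 0.05, and in 126 the groups did not overlap. The paired fit leaves few degrees of freedom, and its calls are named as such throughout.

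The labelled cell line was checked first. All 10 hepatocyte markers, from ALB to HNF4A, were above 0 TPM in every HepG2 library, and their summed level was 56504 to 63331 TPM in co-culture and 65430 to 74008 TPM in mono-culture with FFAs. Of 12 enterocyte and Caco-2 markers, 7 to 9 were above 0 TPM in co-culture and 7 to 8 in mono-culture, with MUC2 at 0 in all 6 libraries and CDX1 at 0 in 5. Their sums were 173 to 191 TPM and 207 to 245 TPM, nearly all of it VIL1, against 877 to 1180 TPM in Caco-2 cells. CDH17, an intestinal cadherin, had 2.75, 0.58 and 1.79 TPM in co-cultured replicates 1, 2 and 3, and 0.38, 0.52 and 0.05 TPM in mono-culture. GSTP1, chosen after its values were seen because Caco-2 cells had 3008 to 3522 TPM of it, had 19.6, 3.97 and 11.0 TPM in co-culture and 2.46, 5.54 and 1.60 TPM in mono-culture. Both genes were thus highest in co-cultured replicates 1 and 3, at under 1% of their Caco-2 level, and their part in the results was not tested. Fibroblast and endothelial markers summed to 4.73 to 14.1 TPM and 5.62 to 32.2 TPM, and immune markers, nearly all LYZ, to 702 to 846 TPM and 786 to 1058 TPM. In bulk samples fewer cells of a type and less RNA per cell cannot be told apart.

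Among the 10 genes of the BMP-SMAD list, 8 were tested and all 8 were higher in co-culture, with a median log2 difference of 0.77 against -0.01 over all genes tested. Of these, 5 (HAMP, ID1, ID2, ID3 and SMAD7) had an unadjusted p under 0.05 and no overlap between groups, where 2.56% of all genes had such a p upward and 4.24% lay wholly above mono-culture. In the paired fit 6 of the 8 passed the adjusted threshold, with BAMBI added, where 0.822% of all genes were so higher. The 250 bases before the RefSeq start of HAMP and the 3 ID genes are shown because HAMP, ID1 and ID3 had the widest differences of the list and ID2 is their relative (GRCh38.p14; HAMP chr19:35282278-35282527 on the plus strand, ID1 chr20:31605039-31605288 on the plus strand, ID2 chr2:8681806-8682055 on the plus strand, ID3 chr1:23559502-23559751 on the minus strand). Capitals mark 3 motifs searched on both strands: GGCGCC, the core of BMP-responsive elements, CAGAC, the SMAD-binding element, and TTCNNNGAA, the site shape of STAT factors.

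HAMP: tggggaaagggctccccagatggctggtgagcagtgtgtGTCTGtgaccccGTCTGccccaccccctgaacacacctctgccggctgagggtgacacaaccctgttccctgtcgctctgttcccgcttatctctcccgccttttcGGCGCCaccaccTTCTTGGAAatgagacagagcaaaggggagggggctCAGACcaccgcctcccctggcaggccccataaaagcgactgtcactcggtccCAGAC
ID1: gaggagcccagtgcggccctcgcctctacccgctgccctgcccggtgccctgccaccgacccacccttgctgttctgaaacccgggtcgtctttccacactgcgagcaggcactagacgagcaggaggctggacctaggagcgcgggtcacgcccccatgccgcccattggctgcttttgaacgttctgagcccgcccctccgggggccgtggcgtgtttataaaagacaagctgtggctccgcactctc
ID2: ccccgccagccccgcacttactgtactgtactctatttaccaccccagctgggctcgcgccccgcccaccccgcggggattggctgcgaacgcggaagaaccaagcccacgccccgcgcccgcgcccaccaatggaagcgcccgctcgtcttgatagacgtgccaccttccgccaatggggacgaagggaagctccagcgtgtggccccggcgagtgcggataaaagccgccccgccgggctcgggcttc
ID3: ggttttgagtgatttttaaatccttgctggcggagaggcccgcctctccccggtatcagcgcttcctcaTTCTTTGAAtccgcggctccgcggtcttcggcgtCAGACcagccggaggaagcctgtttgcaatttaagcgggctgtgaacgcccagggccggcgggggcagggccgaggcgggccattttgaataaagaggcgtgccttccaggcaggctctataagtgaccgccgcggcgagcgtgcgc

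The HAMP window held all 3 motifs, with GGCGCC beginning 105 bases and TTCNNNGAA 93 bases before the start and CAGAC at 4 places, and no matches overlapped. The ID3 window held CAGAC and TTCNNNGAA at 1 place each, and those of ID1 and ID2 held no match, which says only that these letters are not in these windows. Of 35114 RefSeq promoter windows of this length, 16.4% held GGCGCC, 38.0% CAGAC and 6.57% TTCNNNGAA.

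HAMP (ENSG00000105697, chromosome 19, 35280716 to 35285143 of GRCh38) had 15.4, 136 and 45.9 TPM in co-cultured replicates 1, 2 and 3 with FFAs. In mono-culture it had 0.61, 0 and 5.43 TPM. The lowest co-cultured value exceeded the highest mono-cultured value, and co-cultured replicate 2 was far above the other libraries. The difference was 4.44 on the log2(TPM + 1) scale (SE 0.75, unadjusted p = 7.47e-05, limma adjusted p = 0.392, or 0.0445 in the paired fit). Without FFAs it was 5.54, with 64.2 to 153 TPM in co-culture and 0.63 to 1.45 TPM in mono-culture. HAMP had 4.20, 0.59 and 0 TPM in the co-cultured FFAs-treated Caco-2 libraries.

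The ID proteins bind basic helix-loop-helix transcription factors and keep them from DNA. ID1 (ENSG00000125968, chromosome 20, 31605283 to 31606515) had 350, 586 and 166 TPM in co-culture and 78.6, 157 and 53.0 TPM in mono-culture. The groups did not overlap, but co-cultured replicate 3 was close to mono-cultured replicate 2, and within each number the co-cultured library was the higher. The log2 difference was 1.89 (SE 0.50, limma adjusted p = 0.785, 0.0136 with the replicate block and 0.00489 in the paired fit). ID3 (chromosome 1, 23557926 to 23559501) had 131, 178 and 65.3 TPM against 42.1, 56.6 and 32.4 TPM, a log2 difference of 1.42 (SE 0.33). ID2 (chromosome 2, 8678845 to 8684461) had 123, 153 and 129 TPM against 71.1, 83.3 and 87.4 TPM, a log2 difference of 0.74 (SE 0.16). Replicate 2 was the highest library in both cultures for ID1 and ID3.

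The remaining members are mostly inhibitors of the pathway. SMAD7, the inhibitory SMAD, had 17.7, 21.3 and 23.2 TPM in co-culture and 10.1, 13.6 and 11.0 TPM in mono-culture, a log2 difference of 0.79 (SE 0.16) without overlap. BAMBI, a decoy receptor, had 31.6, 83.2 and 71.2 TPM against 19.3, 45.1 and 44.3 TPM, so the groups overlapped although each pair differed in the same direction (log2 difference 0.74, adjusted p = 0.0264 in the paired fit). SMAD9 and SMAD6 differed by 0.23 and 0.06 with overlapping groups. ID4 and ATOH8 were under the limit for testing.

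**Figure D1:**
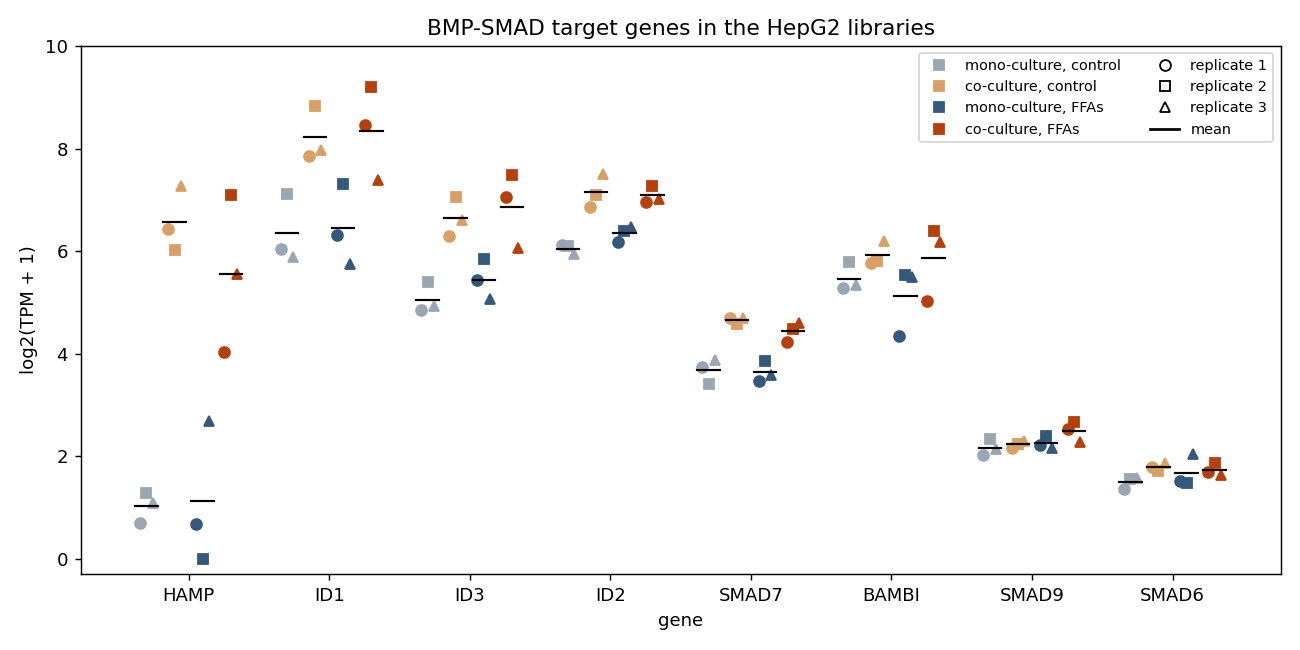
Level of the 8 tested BMP-SMAD target genes in the 12 HepG2 libraries, as log2(TPM + 1) on the vertical axis. Colours are the 4 groups, symbols the replicate numbers and bars the means of 3 libraries. With FFAs, the co-cultured libraries lie wholly above the mono-cultured ones for HAMP, ID1, ID3, ID2 and SMAD7 and overlap with them for BAMBI, SMAD9 and SMAD6.

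Ligands, receptors and modulators of the pathway showed no such shift. Of 24 genes listed 16 were tested, 8 higher and 8 lower, with a median of -0.02. TMPRSS6, a protease that cleaves the BMP co-receptor hemojuvelin and so lowers hepcidin, was the only member with an unadjusted p under 0.05, at 1.28, 1.67 and 1.39 TPM in co-culture and 2.65, 3.62 and 2.31 TPM in mono-culture (log2 difference -0.65, SE 0.24, limma adjusted p = 0.824). INHBE, which encodes the hepatic activin E, had 9.71, 44.6 and 39.7 TPM against 7.87, 13.7 and 20.3 TPM, with overlap. BMP4 was abundant in both groups, at 78.4 to 157 TPM in co-culture and 96.8 to 189 TPM in mono-culture. BMP7, under the limit for testing, had 0.49 to 1.03 TPM in co-cultured and 0.14 to 0.43 TPM in mono-cultured HepG2 cells with FFAs. In control it had 0.15, 0.15 and 0.24 TPM in co-culture and 0.42, 0.20 and 0.08 TPM in mono-culture, so it was not higher there. Caco-2 cells had 128 to 172 TPM of BMP7, and the source of the low values in HepG2 libraries was not tested. BMP2 had at most 0.42 TPM in HepG2 cells and 13.8 to 27.6 TPM in Caco-2 cells.

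The secreted products of hepatocytes were mostly lower in co-culture. Of 20 such genes 18 were lower, 5 (APOC3, APOA1, FGG, TF and VTN) with an unadjusted p under 0.05 and 9 without overlap, where 3.22% and 5.52% of all genes were so lower. In the paired fit 8 of the 20 passed, adding APOA2, APOH, AMBP and FGA but not VTN, where 1.07% of all genes were so lower. APOC3, an apolipoprotein that slows triglyceride clearance, had 331, 249 and 330 TPM in co-culture and 539, 513 and 594 TPM in mono-culture. All co-cultured values were below all mono-cultured values, with a log2 difference of -0.86 (SE 0.15, limma adjusted p = 0.392, or 0.0264 in the paired fit). APOA1, the main protein of high-density lipoprotein, had 9141, 8623 and 7725 TPM against 12350, 13067 and 10890 TPM (-0.51, SE 0.15). ALB had 23184, 28982 and 27925 TPM against 25698, 32224 and 31900 TPM, lower in each pair but with overlap (-0.16, SE 0.19, limma adjusted p = 0.96). The list's median was -0.24, and -0.13 after quantile normalization.

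Most enzymes of fatty acid oxidation had lower means in co-culture, and none passed the adjusted threshold without a block. Of 17 beta-oxidation enzymes 14 were lower, 6 (ACADS, ACAA1, ACAA2, ECI2, EHHADH and ETFDH) with an unadjusted p under 0.05, and the first 4 of these passed the paired fit, where 3.22% and 1.07% of all genes were so lower. ACADS, the short-chain acyl-CoA dehydrogenase, had 55.7, 49.6 and 47.6 TPM in co-culture and 76.3, 76.6 and 65.7 TPM in mono-culture, a log2 difference of -0.51 (SE 0.16) without overlap. The peroxisomal thiolase ACAA1 had 245, 211 and 183 TPM against 310, 265 and 239 TPM, lower in every pair though the groups overlapped. Of 10 targets of PPAR, the nuclear receptor that fatty acids activate, 8 were lower. FABP1, the liver fatty acid carrier, had 3037, 3451 and 2117 TPM against 4971, 5605 and 3278 TPM (-0.68, SE 0.30, unadjusted limma p under 0.05). The groups overlapped, and FABP1 reached the smallest adjusted p of the paired fit, 0.00489, as ID1 did. PLIN2, which coats lipid droplets, went the other way in the same list, with 404, 456 and 636 TPM against 410, 388 and 439 TPM (0.25, SE 0.20, limma adjusted p = 0.938).

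Of 17 genes of triglyceride synthesis, droplets and lipoprotein assembly 13 were lower, with a median of -0.07. DGAT1, which adds the last fatty acid to triglyceride, had 84.6, 68.2 and 78.1 TPM in co-culture and 110, 107 and 115 TPM in mono-culture (-0.53, SE 0.11, limma adjusted p = 0.601, or 0.037 in the paired fit). CIDEB, a droplet protein needed to load lipoproteins, had 64.1, 60.0 and 80.7 TPM against 91.3, 101 and 138 TPM (-0.67, SE 0.16). Neither overlapped between groups. PNPLA3 was lower and GPAM higher by the paired fit alone, at -0.54 and 0.50. Of 18 genes of cholesterol synthesis and uptake 16 were lower (median -0.30). HMGCS1 and MSMO1, of the early and late steps, had an unadjusted p under 0.05 (-0.53 and -0.41), whereas FDPS, FDFT1 and MVD passed the paired fit, where 3.22% and 1.07% of all genes were so lower. FDPS, which makes farnesyl diphosphate, had 682, 622 and 360 TPM against 842, 836 and 532 TPM, lower in every pair though the groups overlapped. De novo lipogenesis had no member with such a p, with 5 of 11 genes higher and 6 lower.

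**Figure D2:**
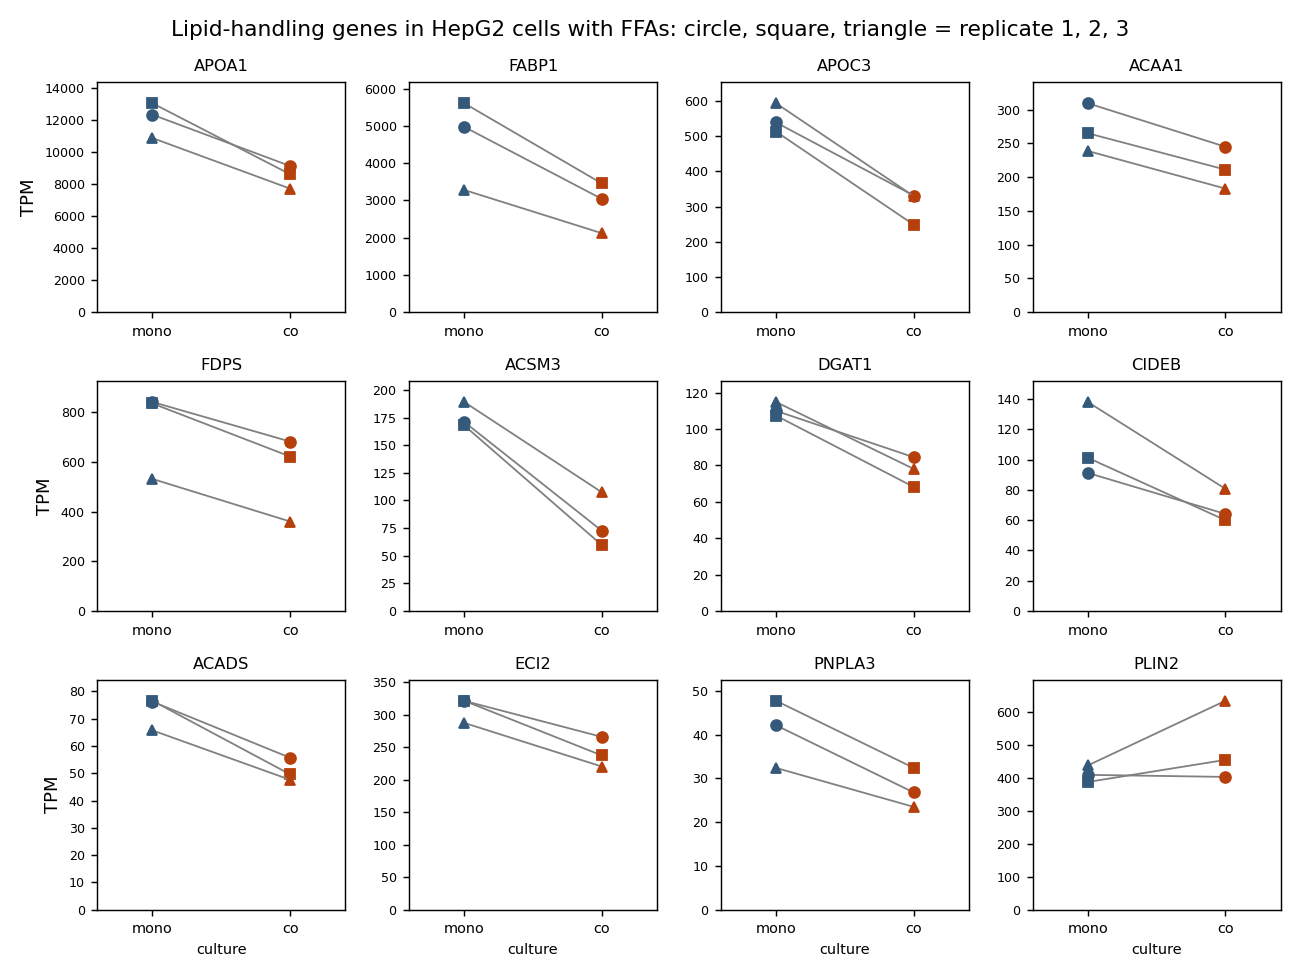
TPM of 12 genes of lipid handling in the 6 FFAs-treated HepG2 libraries, on linear axes that start at 0. Each line joins the mono-cultured (blue) and co-cultured (red) library of a replicate number. All 3 lines go down in each panel except that of PLIN2, where replicate 1 is nearly level and replicates 2 and 3 go up. The panels are a selection without a set rule. GPAM and ANGPTL8, which were higher in co-culture in every pair, are not shown.

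Among 14 genes of bile acid and xenobiotic handling, CYP8B1, the sterol hydroxylase that sets the ratio of bile acids, was lower at 1.76, 1.50 and 1.09 TPM against 3.57, 3.79 and 3.58 TPM (-0.93, SE 0.27), and ABCC3, a basolateral exporter, was higher at 38.2, 44.8 and 45.7 TPM against 23.2, 30.6 and 37.0 TPM (0.51, SE 0.17). Neither overlapped between groups and neither passed the paired fit (adjusted p = 0.0665 and 0.0617).

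ATF4 drives the integrated stress response when amino acids run short or proteins misfold. Of 14 genes of this program 12 were higher, with a median of 0.78 against 0.28 for the same genes in control. Their FFAs and control differences were not told apart, since no gene passed the limma interaction given below. Of the 14, 3 (ASNS, CHAC1 and VLDLR) had an unadjusted p under 0.05, where 2.56% of all genes were so higher. In the paired fit 5 (ASNS, PSAT1, SLC7A11, CEBPB and MTHFD2) passed, where 0.822% of all genes were so higher. ASNS, asparagine synthetase, had 216, 347 and 419 TPM in co-culture and 91.6, 176 and 322 TPM in mono-culture. Replicate 1 was the lowest and replicate 3 the highest in both cultures, so that the groups overlapped while every pair differed the same way (0.86, SE 0.39, limma adjusted p = 0.862, or 0.0468 in the paired fit). SLC7A11, the cystine importer, had 8.58, 40.3 and 54.0 TPM against 3.75, 18.8 and 32.5 TPM, and CEBPB, a transcription factor, 35.9, 145 and 120 TPM against 23.2, 69.4 and 58.7 TPM. Endoplasmic reticulum chaperones had a median of 0.05, with HYOU1 the only member under an unadjusted p of 0.05 (0.25, SE 0.10).

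Of 13 targets of NRF2, the sensor of electrophiles, 11 were higher. AKR1B10, an aldo-keto reductase, had 390, 574 and 388 TPM in co-culture and 174, 317 and 255 TPM in mono-culture (0.87, SE 0.21) without overlap. NQO1 and AKR1C1 were higher by 0.29 and 0.55, and reads of AKR1C1 and its near-identical relatives may be split uncertainly. In glycolysis and the hypoxia response 12 of 17 genes were higher and 5 lower, with a median of 0.14. HK2 (0.69) and ENO1 (0.32) had an unadjusted p under 0.05, where 2.56% of all genes were so higher. With SLC2A1 they passed the paired fit, where 0.822% of all genes were so higher. NDRG1 of the same list was lower by about as much as HK2 was higher (-0.69), without an unadjusted p under 0.05. In the Wnt list NKD1, a feedback inhibitor, was higher (0.52) and GLUL, glutamine synthetase, lower (-0.32, adjusted p = 0.0313 in the paired fit of limma). MYC of the immediate-early list, CCN2 of the YAP and TGF-beta list and PCK2 and PPARGC1A of the gluconeogenesis list were higher in the paired fit alone, by 0.45, 0.49, 0.53 and 0.59. Of 8 gluconeogenesis genes tested 6 were higher and 2 lower. The widest difference of that list was downward, at -1.12, without an unadjusted p under 0.05.

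No member with an unadjusted p under 0.05 was found among 12 acute-phase genes (median 0.23), 10 targets of NF-kB (-0.21), 11 interferon-response genes (-0.42, against 0.55 in control), 12 heat shock genes (-0.05), 16 S phase genes (0.06), 16 mitosis genes (0.11), 24 nuclear genes of the respiratory chain (members between -0.17 and 0.20), 30 ribosomal protein genes (0.04), 7 metallothionein and zinc export genes (0.14), 3 aryl hydrocarbon receptor targets (-0.50) or 18 hepatic transcription factors (-0.10). HNF4A, the central regulator of hepatocyte identity, had 95.9, 83.0 and 59.6 TPM in co-culture and 102, 101 and 101 TPM in mono-culture, without overlap but short of the threshold (-0.38, unadjusted p = 0.0621 by limma). ISG15 had 131, 136 and 103 TPM against 250, 139 and 128 TPM, and CYP1A1 26.0, 18.4 and 44.9 TPM against 42.1, 22.1 and 136 TPM, with 1 mono-cultured library far above the rest in each case. In control ISG15 had 129, 837 and 112 TPM in co-culture and 160, 136 and 118 TPM in mono-culture. There co-cultured replicate 2 was far above the rest.

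**Figure D3:**
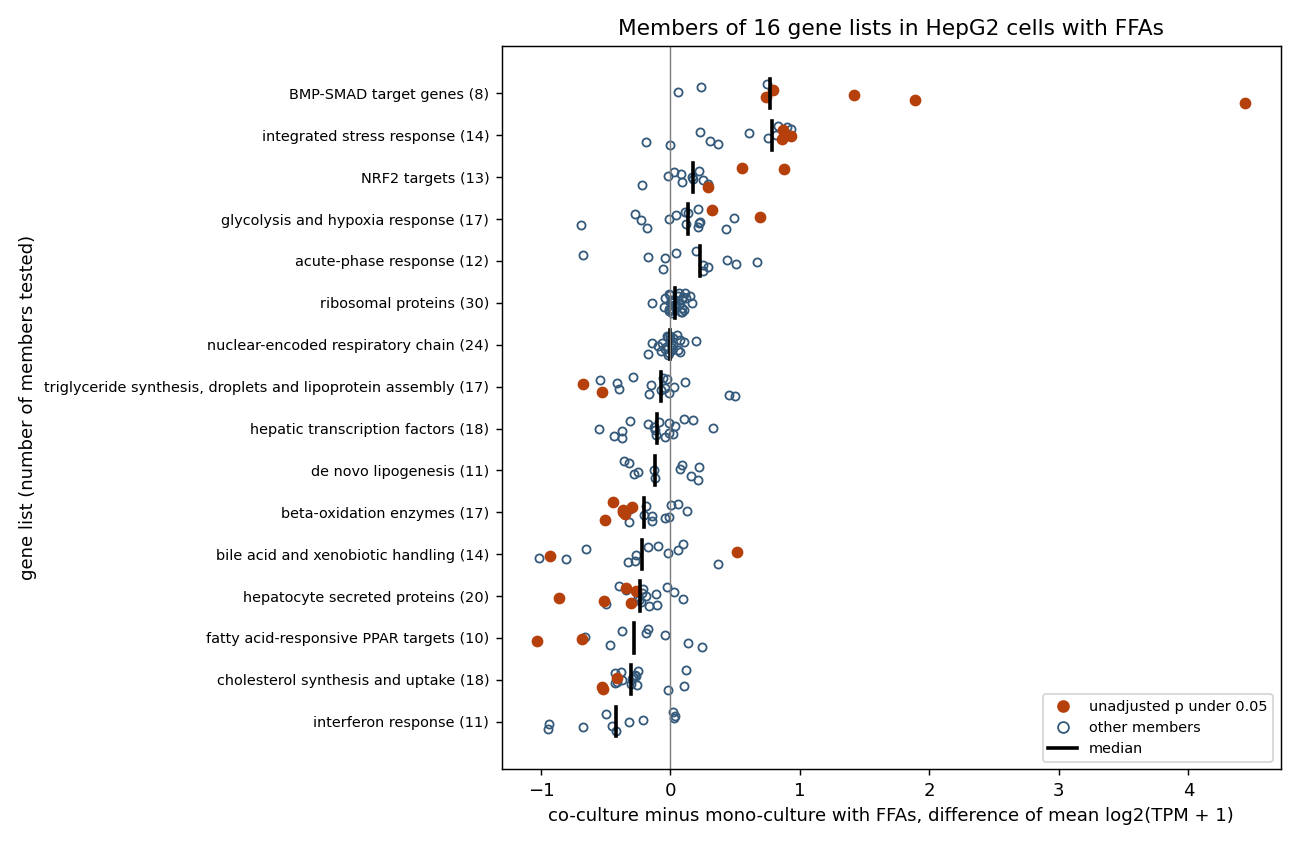
Difference of mean log2(TPM + 1) between co-cultured and mono-cultured HepG2 cells with FFAs for the members of 16 gene lists. Each circle is a gene, filled where the unadjusted limma p was under 0.05, and bars are list medians. The BMP-SMAD and integrated stress response medians lie near 0.8, and the respiratory chain and ribosomal protein members lie close to 0.

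Across all genes, 424 protein-coding genes had an unadjusted p under 0.05, no overlap and a mean of at least 5 TPM in either group, 200 higher and 224 lower. Over all 13870 genes tested, 5.78% had such a p, and 4.24% lay wholly above and 5.52% wholly below mono-culture. Of the 24 named below 19 passed the paired fit, 9 higher and 10 lower, and ALDH1L2, CSTA, CEMIP, ENPP2 and HLA-B did not. The 24 were picked by their differences in the same libraries, so these passes are no separate support. Over all genes 1.90% passed the paired fit. The 12 with the greatest positive differences were HAMP, ID1, NPAS1, ID3, ANGPTL8, ALDH1L2, PRSS8, CPLX2, CSTA, PAQR8, CEMIP and AKR1B10. NPAS1, a PAS-domain transcription factor, had 10.3, 18.5 and 15.4 TPM in co-culture and 2.38, 3.77 and 4.98 TPM in mono-culture (1.74, SE 0.47). ANGPTL8, a secreted regulator of lipoprotein lipase, had 44.6, 93.6 and 53.3 TPM against 28.1, 30.0 and 16.8 TPM (1.29, SE 0.41). PAQR8, a membrane progestin receptor, had 21.0, 27.9 and 32.1 TPM against 13.0, 13.4 and 15.7 TPM (0.88, SE 0.19). CPLX2, which binds membrane fusion complexes, had 67.6, 60.7 and 40.3 TPM against 30.2, 26.6 and 27.3 TPM (0.95, SE 0.20). PRSS8, a membrane serine protease, had 31.0, 57.0 and 52.1 TPM against 16.6, 20.8 and 29.3 TPM, and 466 to 590 TPM in Caco-2 cells. ALDH1L2, CSTA and CEMIP were higher by 1.08, 0.92 and 0.88.

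The 12 with the greatest negative differences were GNMT, SLC22A7, CLDN19, ACSM3, TRIM73, SPTSSB, ENPP2, TFF3, SLC38A4, PTGDR2, ITIH1 and HLA-B. ACSM3 (ENSG00000005187, chromosome 16, 20610243 to 20797581), a mitochondrial medium-chain acyl-CoA synthetase, had 72.5, 59.5 and 107 TPM in co-culture and 171, 168 and 189 TPM in mono-culture. The groups were far apart (-1.17, SE 0.20, limma adjusted p = 0.392, or 0.0264 in the paired fit). SLC22A7, an organic anion transporter of hepatocytes, had 2.22, 3.17 and 3.13 TPM against 5.90, 11.8 and 10.8 TPM (-1.41, SE 0.26). GNMT, which consumes S-adenosylmethionine, had 7.04, 2.89 and 2.85 TPM against 14.3, 16.7 and 8.16 TPM (-1.45, SE 0.48). SLC38A4, an amino acid transporter, and ENPP2, which makes lysophosphatidic acid, were lower by -1.04 and -1.05, and the claudin CLDN19, the trefoil factor TFF3, the prostaglandin receptor PTGDR2 and the plasma protein ITIH1 by -1.25, -1.05, -1.04 and -1.04. TRIM73 (-1.15) and HLA-B (-1.02) have close relatives with which reads may be split uncertainly.

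The same differences were then read in the HepG2 control libraries, which share no library with the FFAs comparison but share its estimate of spread. Over the 13870 genes the 2 sets of log2 differences had Pearson's r = 0.41 and Spearman's rho = 0.48, across genes that are not independent replicates, and 68.8% had the same sign. Of the 802 genes with an unadjusted p under 0.05 with FFAs, 722 (90.0%) had the same sign in control, 316 of 355 higher and 406 of 447 lower, and of the 263 of the paired fit 253 (96.2%). Genes with such a p in both comparisons numbered 308, which is 38.4% of the FFAs list and 30.2% of the control list, and 5 of these had opposite signs. In control itself 0 genes (0.0%) passed the adjusted threshold by limma, 6 (0.0433%) did with the replicate block, and 1021 (7.36%) had an unadjusted p under 0.05.

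The difference between the FFAs and control effects was also tested directly. No gene passed (0 genes, 0.0%, limma interaction, smallest adjusted p = 1.00), and 149 (1.07%) had an unadjusted p under 0.05. For HAMP the FFAs difference was smaller than that in control by -1.10 (SE 1.06), and for ID1 the FFAs and control differences were 0.02 apart (SE 0.71). SPTSSB, a small subunit of serine palmitoyltransferase that starts sphingolipid synthesis, had 7.95, 6.78 and 5.88 TPM in co-culture and 14.9, 16.7 and 16.2 TPM in mono-culture with FFAs. Without FFAs it had 2.89, 9.08 and 6.45 TPM against 3.05, 2.51 and 5.49 TPM. The log2 differences were -1.11 and 0.55, which differed with an unadjusted limma p of 0.0032 and an adjusted p of 1.00. ALDH1L2, a mitochondrial folate enzyme, differed by 1.08 with FFAs and -0.07 in control (limma interaction, adjusted p = 1.00).

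**Figure D4:**
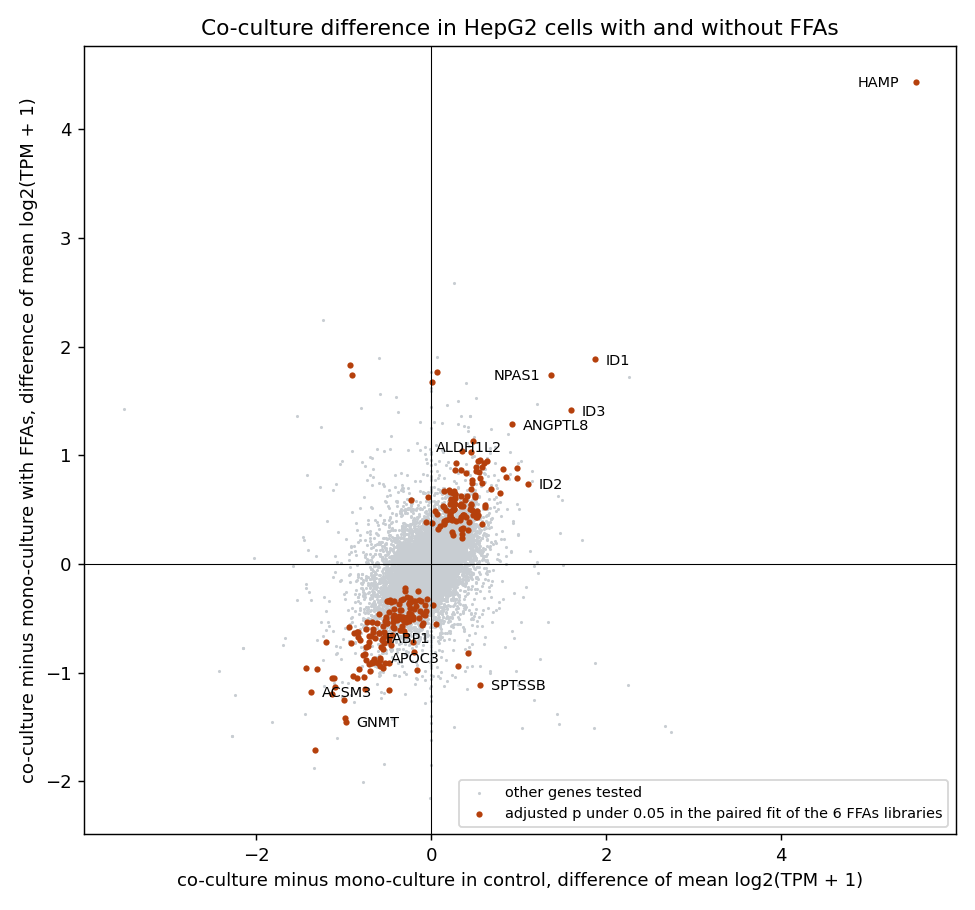
Co-culture minus mono-culture difference of mean log2(TPM + 1) with FFAs (vertical) and in control (horizontal) for 13870 genes in HepG2 cells. Orange-red points are the 263 genes of the paired fit of the FFAs libraries, most of them in the quadrants where both differences have the same sign. HAMP lies far from the rest at the upper right, and SPTSSB lies to the lower right.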

How the data were processed

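The labels gave each library's group and replicate number (3 per HepG2 group). The authors deposited 1 table of TPM per library, made per the study's methods and processing notes with Bowtie2 2.1.0 (removal of rRNA, tRNA and mitochondrial reads), STAR 2.7.1a on GRCh38 with Ensembl 98, and RSEM 1.3.0. TPM keep no counts, so depth is unknown and count tests were not used; 19259 to 22416 genes were above 0 TPM per HepG2 library, most in replicates numbered 3, and all mitochondrial genes were at 0.

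Values were analysed as log2(TPM + 1) with limma 3.58.1 (R 4.3.3, eBayes with trend) in 1 fit of the 12 HepG2 libraries, on genes whose mean reached 1 TPM in either FFAs group, with Benjamini-Hochberg adjustment at 0.05. A fold on this scale understates the change of low genes. The method was tested on data simulated with independent normal noise for each gene and, for the paired fit, with replicate effects built in. Whether the real libraries vary in this way was not tested, so the simulation is no check on the calls of the paired fit. Deviations from group means correlated between same-numbered co-cultured and mono-cultured libraries at 0.53, 0.31 and 0.61 with FFAs and 0.12, 0.18 and 0.49 in control. Libraries of other numbers correlated at -0.50 to -0.01 with FFAs and at -0.34 to 0.21 in control, where co-cultured replicate 1 correlated more with mono-cultured replicate 2 (0.21) than with its own number. All same-number values were over 0.1, a low bar, so the numbers were taken to pair the libraries, and the replicate block was an alternative fit. Deviations within a group cancel out, so positive values for the same number in part bring negative ones for other numbers. The pairing was read from the same libraries that the block was fitted to, and no separate source backs it. The labels alone give the numbers. Replicates of a group were not duplicates (r of log2 values 0.962 to 0.981).

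Named genes were those that passed, the 12 most different each way among non-overlapping protein-coding genes whose mean reached 5 TPM, with an unadjusted p under 0.05, list members with such a p, ALB, PLIN2 and markers. GSTP1, BMP2, BMP7, HNF4A, ISG15, CYP1A1 and genes named from the paired fit were chosen after their values were seen. Members and lists were chosen with earlier results of these data known, and lists got counts and medians without a test. Coordinates come from GENCODE 44 (60295 identifiers matched) and promoter windows from RefSeq on GRCh38.p14. Some genes that the rule covers are not reported here. Python 3.11.15, numpy 2.4.6, pandas 2.3.3 and matplotlib 3.10.9 were used.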

Additional observations from a re-analysis of the deposited data

How the results depend on the processing

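Genes past the adjusted threshold with FFAs numbered 0 under another pseudocount (0.1), median-of-ratios scaling, quantile normalization, no filter, a filter of 5 TPM, limma without trend and the 6 libraries without a block. They numbered 1 with the replicate block (ID1), 263 with the block on the 6 FFAs libraries alone, and 0 to 1 with single libraries left out, the 1 being RN7SKP86 without mono-cultured replicate 3. Leaving out every library numbered 3, an alternative chosen after seeing the data, gave 3 (7SK, RN7SK and ACSM3). At an unadjusted p under 0.05 with at least a 1.2-fold change 758 genes were counted, and 1440 and 1939 with the 2 blocks. They numbered 482 to 1175 with single libraries left out, lowest without co-cultured replicate 2 and highest without co-cultured replicate 1. Of these genes 43.0% were higher, 50.7% with median-of-ratios scaling, 53.1% without co-cultured replicate 1 and 51.3% without mono-cultured replicate 2. The interaction gave 1 gene without the filter and 1 without the libraries numbered 3, and the control comparison 1 without the filter and 6 with the replicate block. The cause of these shifts was not tested, and the settings that leave libraries out also have fewer samples. Of 107 genes named, 69 passed with the block on 6 libraries, ID1 with the replicate block on 12, and ACSM3 without the libraries numbered 3. Some of the 107 were named because they passed with the block on 6 libraries, so the 69 in part reflects that choice. Over all genes 1.90% passed that fit.

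The BMP-SMAD median lay between 0.68 and 1.03 with single libraries left out. HAMP differed by 5.97 with a pseudocount of 0.1. Of the genes named, only BMP4 and SMAD6 changed sign. With single libraries left out BMP4 ranged from -0.36 to 0.14, positive without co-cultured replicate 2 and mono-cultured replicate 3 (0.12). SMAD6 ranged from -0.046 to 0.25, negative without co-cultured replicate 2 and mono-cultured replicates 1 and 2. Depth limits are unknown, since TPM hold no counts.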

Other observations

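Genes for building proteins were mostly higher in co-cultured HepG2 cells with FFAs. These lists were chosen after their values were seen and have no test. Of 20 cytosolic aminoacyl-tRNA synthetases, which charge tRNAs with amino acids, 17 were higher (median log2 difference 0.29, 0.22 in control). EPRS, LARS, NARS, TARS and VARS had an unadjusted limma p under 0.05, and GARS, MARS, NARS, SARS, TARS, VARS and YARS passed the paired fit, where 2.56% and 0.822% of all genes were so higher. TARS had 129, 200 and 188 TPM in co-culture and 88.7, 124 and 126 TPM in mono-culture, where co-cultured replicate 1 lay just above the highest mono-cultured library. VARS had 168, 167 and 175 TPM against 132, 97.8 and 122 TPM.

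Of 25 ribosome biogenesis factors 24 were higher (median 0.25, 0.31 in control). Of these, 13 had an unadjusted p under 0.05 and, counted separately, 13 had no overlap, against 2.56% and 4.24% of all genes. BOP1, a factor of the large subunit, had 112, 118 and 110 TPM against 82.8, 67.3 and 83.9 TPM. NOP58, a core protein of box C/D particles, had 190, 225 and 211 TPM against 159, 142 and 166 TPM, and only BOP1 and WDR43 passed the paired fit, against 0.822% of all genes. Ribosomal protein genes themselves had a median of 0.04.

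Of 23 genes of amino acid breakdown 19 were lower (median -0.15), GNMT, AMT and ALDH6A1 with an unadjusted p under 0.05, and with BHMT these passed the paired fit, where 3.22% and 1.07% of all genes were so lower. ALDH6A1, of valine breakdown, had 41.0, 27.4 and 32.1 TPM against 61.7, 53.9 and 51.1 TPM, a log2 difference of -0.73 (SE 0.19, limma adjusted p = 0.785).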
